A study of Rattus norvegicus with 14 samples.

Results

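The mitochondrial ribosomal protein genes are the nuclear genes whose products form the ribosome that works inside mitochondria. The array holds 70 gene names of this family, measured by 81 probes, out of 26276 gene names and 30367 probes that are not controls. They were chosen by name alone, as every gene whose symbol starts with Mrpl or Mrps followed by a number, and the brightest of a gene's probes stood for the gene. By current naming, 44 of the 70 belong to the large subunit and 24 to the small subunit. Mrps36 is counted in neither subunit, since its product is now placed in a metabolic enzyme complex, and Mrps21l, named as a relative of Mrps21, was not assigned. Colonocytes, the absorptive cells that line the colon, came from male Wistar rats given 1 of 2 diets of equal energy for 15 days. In the normal-protein diet (NPD) group protein provided 14% of the energy, and in the high-protein diet (HPD) group it provided 55%. Each group held 7 rats with 1 single-colour array each, and no other treatment or genotype distinguished them. The study's methods state that outlying samples of both diets were removed after a principal component analysis of the arrays. Those samples are not analysed here, so the spread is that of the rats that were kept. The cells were shaken off the colon wall after perfusion with EDTA, so other cells of the mucosa could be among them, and in such bulk RNA fewer cells of a type and less RNA per cell cannot be told apart.

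The mitochondrial ribosome translates the few messenger RNAs encoded by mitochondrial DNA, all of which specify membrane subunits of the respiratory chain and of ATP synthase. Its ribosomal RNAs are made in the organelle, while its proteins are encoded in the nucleus, translated in the cytosol and imported. Part of the proteins descend from those of bacterial ribosomes, and the others were added during the evolution of mitochondria. Differentiated colonocytes draw much of their energy from the oxidation of butyrate in mitochondria, and so depend on the respiratory chain that this ribosome helps to build.

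The labelled cell type was borne out by its markers. All 11 markers of colonocytes and epithelium were well above background on all 14 arrays. The log2 of their summed signal ranged from 13.04 to 13.32 on the NPD arrays and from 13.00 to 13.63 on the HPD arrays. Markers of other cells were present too. All 6 goblet cell markers, all 4 enteroendocrine markers, 6 of 7 stromal and muscle markers, 4 of 7 immune markers and 1 of 3 red blood cell markers were above background on every array. None of these genes passed the test between the diets. At an unadjusted p under 0.05, 4 of the 38 markers were lower in HPD and 5 higher, named here after their values were seen. Among all probes 5.55% were lower and 5.86% higher at that p. The shares were 8.13% and 5.18% of the probes above background on all arrays. The lower markers were Krt19 of the epithelium (-0.36), Clca1 of goblet cells (-0.56), Lyz2 of immune cells (-0.56) and Myh11 of muscle (-0.48). Higher were Guca2a of the epithelium (0.31), Spink4 of goblet cells (1.82), Hba-a2 of red blood cells (0.52), Col1a1 of stroma (0.35) and Col3a1, which was above background on 1 array and is given no fold change. The summed log2 signal of the goblet cell markers ran from 12.02 to 12.68 in NPD and from 11.59 to 13.26 in HPD, and that of the immune markers from 6.47 to 6.92 and from 6.05 to 6.61. For the stromal and muscle markers it ran from 3.62 to 4.76 and from 3.48 to 4.35. The part of these genes in the results on the mitochondrial ribosome was not tested. The number of probes above background ranged from 18835 to 20967 per array. The arrays lay on 2 slides, with NPD 1 to 4 and HPD 1 to 3 on slide 1 and NPD 5 to 7 and HPD 4 to 7 on slide 2. At a false discovery rate (q) under 0.1, 12164 of all probes (40.1%) differed between the slides. One array stood apart within its diet: HPD 1 lay with the NPD arrays of its slide for part of the family, so values that rest on it are also given without it.

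No mitochondrial ribosomal protein gene was called different between the diets. None passed the limma test at q under 0.1, which 17 of all probes (0.0560%) passed, and the lowest q of a member was 0.417. Levels are log2 signals relative to the median probe of the same array, and differences are HPD minus NPD on the log2 scale. The median difference over the 70 genes was 0.10, beside 0.11 over all probes, which is the shift that the centring leaves in the whole array. Over the 17432 probes that were above background on all arrays, as 69 of the members were, the median was 0.05. Of the members, 48 lay above 0 and 22 below, beside 35.8% of all probes and 42.1% of those above background on all arrays that lay below 0. The differences ran from -0.80 to 0.26. In no member did the 7 HPD values lie wholly apart from the 7 NPD values, which happened in 0.273% of all probes. Since the median moves with the centring, and turned to -0.04 with another background correction and to -0.07 in the authors' normalized table with the slide as a block, no direction can be given for the family as a whole.

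The intervals limit how large a change could have been missed. The 95% confidence interval of the difference had a median half-width of 0.35. For 66 of the 70 genes the whole interval lay within a log2 difference of 1, that is a 2-fold change, in either direction. The exceptions were Mrpl35, Mrpl42, Mrps2 and Mrps10, whose intervals reached past it on the lower side. Among the 66 is Mrps28, whose probe was well above background on 1 NPD and 0 HPD arrays, so its interval sets no limit.

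**Figure D1:**
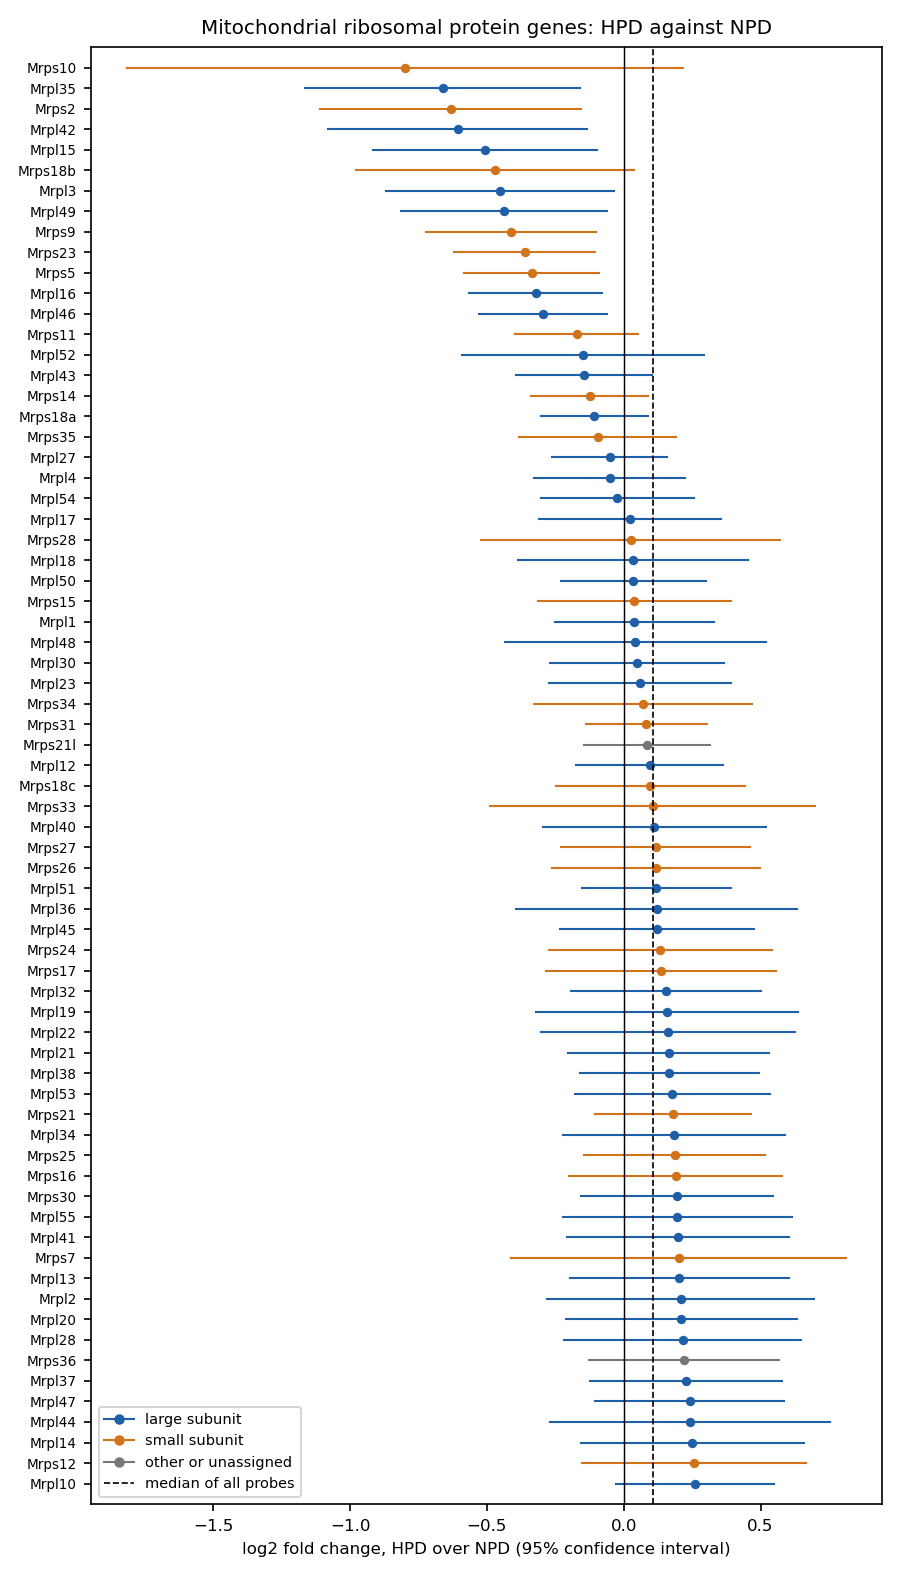
Log2 fold change of HPD over NPD for each of the 70 genes, sorted, with the 95% confidence interval from limma (n = 7 per group). Colours give the subunit, and the dashed line is the median of all probes at 0.11. Most genes lie close to that line, and a lower tail of 13 genes from Mrps10 to Mrpl46 reaches from -0.80 to -0.30.

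The subunits had close medians, and the difference between them was not tested. Of the 44 large subunit genes, 31 lay above 0 and 13 below, with a median difference of 0.12. Of the 24 small subunit genes, 15 lay above 0 and 9 below, with a median of 0.08. The large subunit proteins with a bacterial counterpart (25 genes) had a median of 0.12, and the 18 that are specific to mitochondria had one of 0.08. In the small subunit these medians were 0.07 for 14 genes and 0.08 for 9 genes. Mrpl55 and Mrps28 were left out of this split as unclassified. Mrps18a and Mrps18b, though relatives of bacterial S18, were counted as specific to mitochondria. Mrps18a and Mrps30 are named for the small subunit, but their products sit in the large one. Mrps18a showed a difference of -0.11 and Mrps30 one of 0.19, with q of 0.569 and 0.570.

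The spread within the family was uneven. At an unadjusted p under 0.05, 11 members were lower in HPD, or 15.7% of the family against 5.55% of all probes and 8.13% of those above background on all arrays. No member was higher at that p, as 5.86% and 5.18% of these probes were. These 11 genes did not survive the adjustment over all probes, with q from 0.417 to 0.425. Gene by gene, an exact permutation test (two-sided) gave 12 of the 70 members a p under 0.05, and 15 when rats were regrouped only within slides. In the same 2 tests 11.7% and 15.2% of all probes had such a p. Among probes above background on all arrays the shares were 14.8% and 20.5%, and the 15 of 70 lie close to the latter. The 11 genes comprised 7 of the large and 4 of the small subunit. By name they were Mrpl3, Mrpl15, Mrpl16, Mrpl35, Mrpl42, Mrpl46, Mrpl49, Mrps2, Mrps5, Mrps9 and Mrps23. Their differences, from -0.66 to -0.30, kept the same sign in each of the 48 fits tried. These fits reuse the same arrays and mostly the same probes, so the kept sign is no independent test. Of the 11 genes only Mrpl35 had a second probe, and that probe differed by 0.05. As a set the 11 genes were picked by their p, so the values below describe them and test nothing further.

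Among the large subunit genes, Mrpl35 encodes the counterpart of bacterial protein L35 and had the lowest difference of that subunit. Its level ran from 3.53 to 4.21 in NPD (median 4.0) and from 2.42 to 4.33 in HPD (median 3.25), a difference of -0.66 ± 0.24 (SE). The highest value of all was an HPD one, from HPD 1, while 5 of the 7 HPD values lay below the lowest NPD value. Mrpl42, a protein specific to mitochondrial ribosomes, had levels of 2.73 to 3.70 in NPD (median 3.48) and 2.27 to 3.83 in HPD (median 2.72). Its difference was -0.61 ± 0.22 (SE). Here too HPD 1 stood above every NPD array, and 4 HPD values lay below the lowest of NPD. Mrpl15, the counterpart of bacterial L15, ranged from 2.97 to 4.0 in NPD (median 3.58) and from 2.48 to 3.77 in HPD (median 2.95), with a difference of -0.51 ± 0.19 (SE).

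Mrpl3 encodes a core protein that lies near the catalytic centre of the large subunit, and inherited defects of the human gene impair the respiratory chain. Its level was 2.51 to 3.51 in NPD (median 3.08) and 2.04 to 3.14 in HPD (median 2.37), a difference of -0.45 ± 0.20 (SE). Mrpl49, again specific to mitochondria, had levels of 2.15 to 2.71 in NPD (median 2.51) and of 1.60 to 2.89 in HPD (median 1.98). For both genes most HPD rats sat below the NPD mean, 6 of 7 in each case, and HPD 1 was the exception. Mrpl16, whose bacterial counterpart L16 helps to position the transfer RNA, ranged from 3.54 to 3.92 in NPD (median 3.81) and from 3.20 to 3.82 in HPD (median 3.43), with a narrow spread in both groups. Mrpl46, named after its values were seen to complete the 11, differed by -0.30 ± 0.11 (SE).

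Among the small subunit genes, Mrps23 had the smallest p of the family. Its level ran from 3.97 to 4.34 in NPD (median 4.31) and from 3.53 to 4.20 in HPD (median 3.85). The difference was -0.36 ± 0.12 (SE), with an unadjusted p of 0.0091 and a q of 0.417 from limma, and every HPD rat (7 of 7) fell short of the NPD mean. The exact permutation p over all splits of the 14 arrays was 0.0047. Mrps5, the counterpart of the bacterial S5 protein that lines the path of the messenger RNA, went from 1.80 to 2.23 in NPD (median 2.05) and from 1.47 to 1.95 in HPD (median 1.68). Again no HPD rat reached the NPD mean, although the groups overlapped. Mrps9 ranged from 3.78 to 4.38 in NPD (median 4.24) and from 3.45 to 4.19 in HPD (median 3.71).

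Mrps2 lies between the head and the body of the small subunit and is the counterpart of bacterial S2. Its probe was dim, at 0.28 to 1.44 in NPD (median 0.97) and -0.32 to 1.19 in HPD (median 0.35), with a difference of -0.63 ± 0.22 (SE). Mrps18b, 1 of 3 relatives of bacterial S18 in mammals, was close behind the 11 genes. It ranged from 1.70 to 2.89 in NPD (median 2.54) and from 1.40 to 2.65 in HPD (median 1.70), a difference of -0.47 ± 0.24 (SE) with an unadjusted p of 0.067 from limma. The exact p was 0.088 over all splits and 0.0073 within slides.

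Mrps10 had the largest difference of all, -0.80 ± 0.48 (SE), and the least certain one. Its level ran from -0.71 to 2.18 in NPD (median -0.08) and from -0.64 to 1.38 in HPD (median -0.54), and its limma p was 0.11. The values formed no single cloud. NPD 1, NPD 2, NPD 3 and HPD 2 lay between 1.38 and 2.18, and the other 10 arrays lay at or below -0.08. All 4 high arrays were on slide 1. Without HPD 2 the difference became -1.07.

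**Figure D2:**
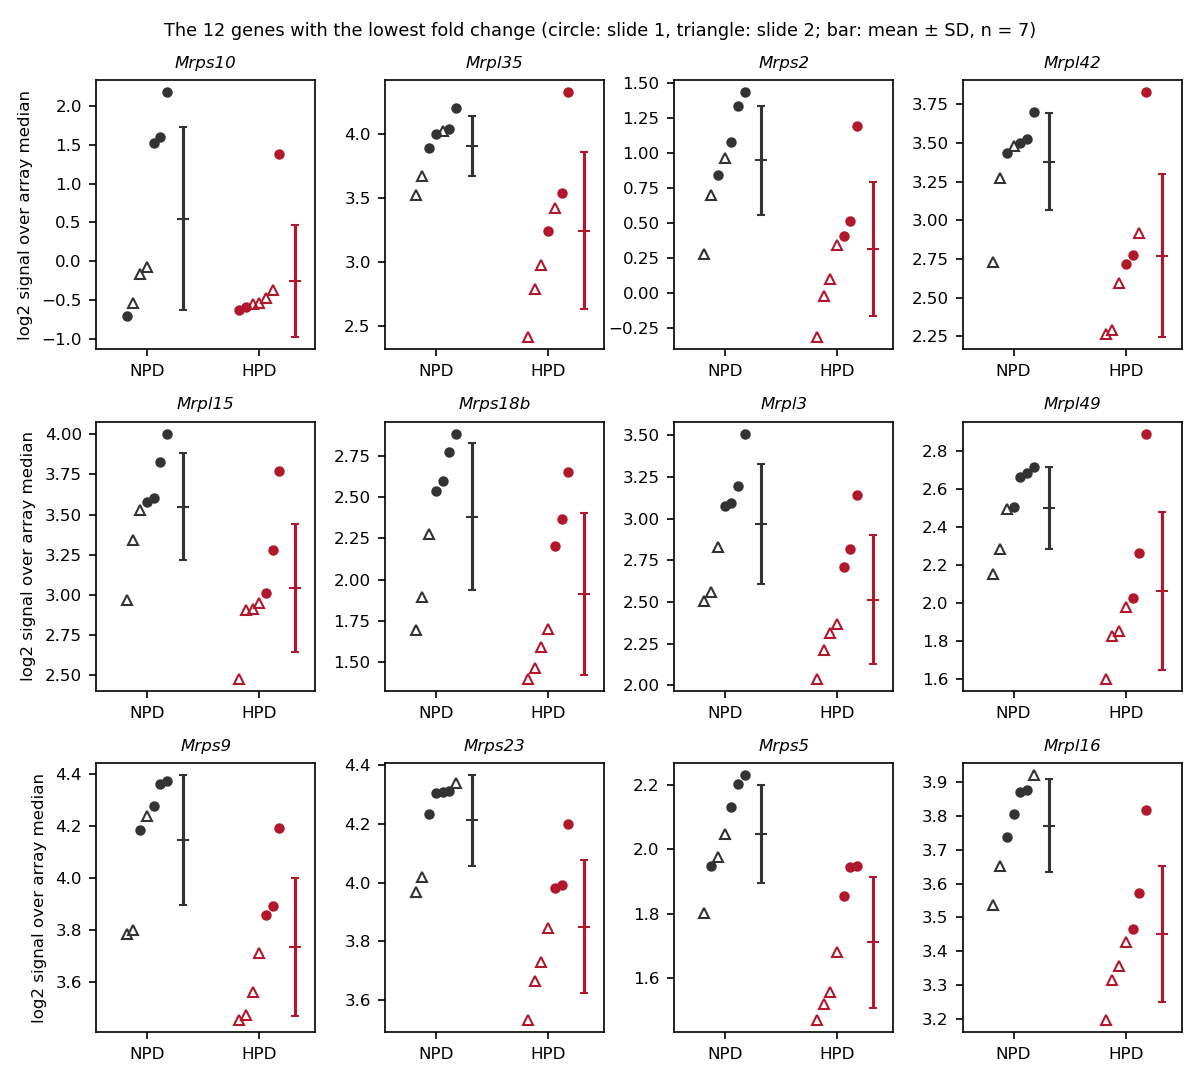
Log2 signal relative to the array median in each rat for the 12 genes with the lowest fold change (circles, slide 1; triangles, slide 2; bars, mean ± SD, n = 7). In most panels the HPD rats of slide 2 lie lowest, and the HPD circle that stands with the NPD rats is HPD 1, except for Mrps10, where it is HPD 2.

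The rats did not contribute evenly to these differences, and the slide moved with them. HPD 1 had the highest HPD level of all 11 genes. Without HPD 1 the differences of the 11 genes widened to between -0.84 and -0.34, and Mrpl35 and Mrpl42 then passed q under 0.1, at 0.0976 each (0.283% of all probes were called lower in that fit). All 11 genes were also lower on slide 2 than on slide 1, by 0.19 to 0.68. For the slide, 9 of them passed q under 0.1, as did 40.1% of all probes. Since slide 2 held 4 HPD and 3 NPD rats, part of a slide difference enters the diet difference. Within slide 1 all 11 differences were smaller in size than the pooled ones, and within slide 2 they were larger for 7 genes and smaller for 4. The median of the 11 differences was -0.32 on slide 1 and -0.42 on slide 2, and each of the 11 was below 0 on both slides.

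With the slide as a block, the 11 differences ran from -0.58 to -0.28 with q from 0.207 to 0.229. In that fit 12 members were lower at an unadjusted p under 0.05, or 17.1% of the family against 7.32% of all probes and 10.9% of those above background on all arrays, and none was higher. The blocked fit without HPD 1 called 11 members at q under 0.1, all lower in HPD, against 3.46% of all probes called lower. The 11 called there were 10 of the 11 genes above and Mrps18b, with Mrpl46 left out. The calls in that fit therefore turned on 1 rat.

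The other 59 genes had the opposite slide pattern. Of these, 51 were higher on slide 2, with a median of 0.44. Over the whole family, 49 of 70 genes passed q under 0.1 for the slide, beside 40.1% of all probes. The lower set stood highest on NPD 1, NPD 2 and HPD 1, the arrays on which the other 59 genes were low, with median deviations of 0.44, 0.40 and 0.38 against -0.35, -0.37 and -0.32. On HPD 7 the lower set was at -0.40 and the others at 0.53. The sets did not mirror each other on every array. Both were above 0 on NPD 6 (0.01 and 0.13) and NPD 7 (0.31 and 0.23). Both were below 0 on HPD 2 (-0.03 each), HPD 3 (-0.20 and -0.07) and HPD 4 (-0.55 and -0.07). HPD 7 was the highest array for 44 of the 70 genes. What part of the diet differences comes with the slide was not tested beyond the blocked and within-slide values.

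**Figure D3:**
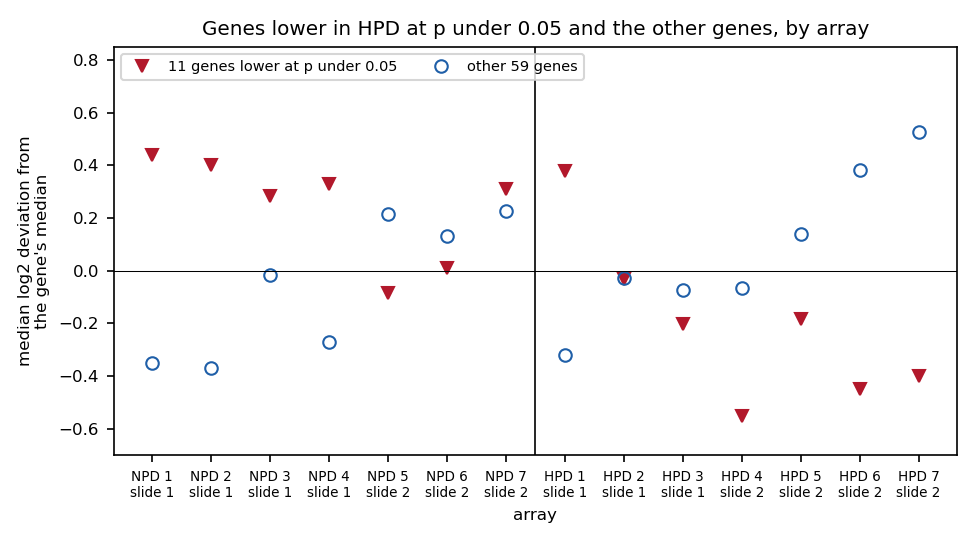
Median log2 deviation from each gene's own median on each of the 14 arrays, for the 11 genes lower in HPD at an unadjusted p under 0.05 (triangles) and the other 59 genes (circles). The lower set is above 0 on 5 of the 7 slide 1 arrays, HPD 1 among them, and its 5 lowest arrays are HPD 3 to HPD 7.

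**Figure D4:**
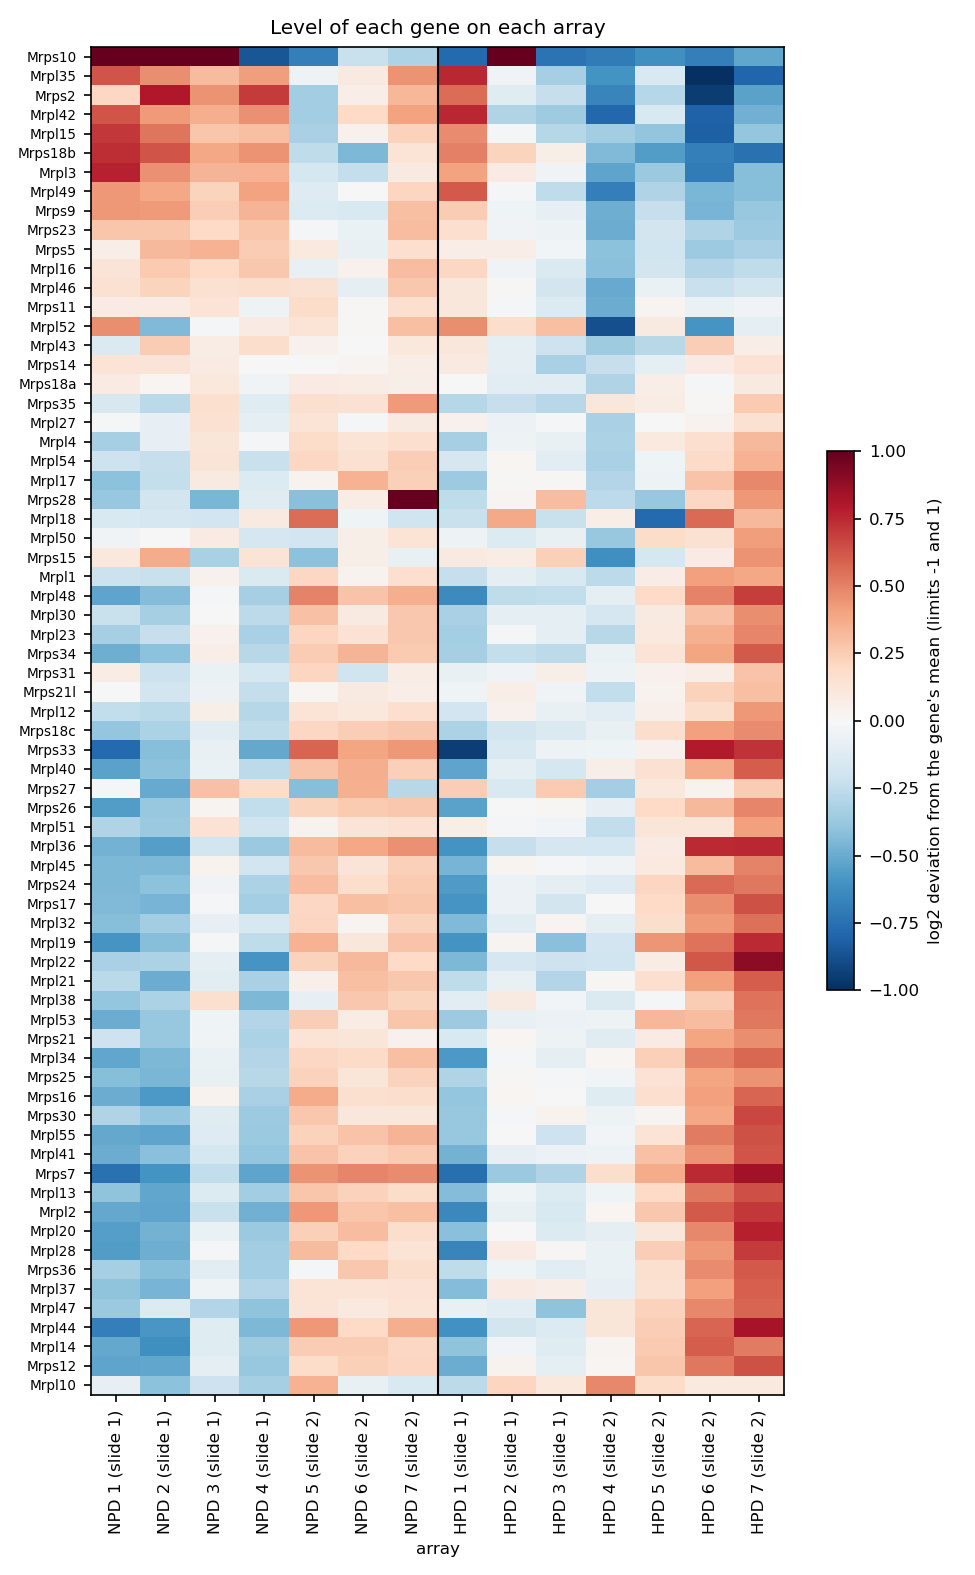
Log2 deviation from the gene's mean for 70 genes (rows, sorted by fold change with the lowest on top) on 14 arrays (columns, NPD left and HPD right of the line). The top row, Mrps10, is red on NPD 1, NPD 2, NPD 3 and HPD 2 only. The rows next to it are red on the NPD arrays of slide 1, NPD 7 and HPD 1 and blue on HPD 4 to 7. Most rows further down are blue on NPD 1, NPD 2, NPD 4 and HPD 1 and red on HPD 5 to 7, with HPD 7 the darkest red.

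The lower genes shared features of their probes. Their median level was 3.30 (range 0.63 to 4.03), beside 6.10 for the other 59 genes. Over the 70 genes the diet difference rose with the level, with a Spearman rho of 0.63. Over all probes, the dimmest included, that rho was -0.25. The slide difference rose with the level too, with a rho of 0.62 beside -0.02 over all probes. The diet and slide differences of the 70 genes went together with a rho of 0.81, beside 0.54 over all probes. The points of these relations share the same 14 arrays, so the values describe and do not test. The share of G and C in the probes hardly differed, with a median of 41.7% in the 11 genes and 43.3% in the others. For 5 of the 11 genes, Mrpl3, Mrpl35, Mrps5, Mrps9 and Mrps23, the probe covered more than its own 60 bases of the rn4 genome, so that it crossed at least 1 intron, beside 7 of the other 59 genes. Among all probes with a position, 7.37% did so, and 18.4% of those lower in HPD at p under 0.05 against 4.38% of those higher. Whether signal or probe position plays a part in the diet difference was not tested.

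When all probes were divided by signal into 10 equal groups, the members in groups 6, 7 and 8 from the dimmest had median differences of -0.63 (3 genes), -0.34 (7 genes) and -0.30 (13 genes). All probes of these groups had medians of -0.02, -0.04 and 0.02. In the 2 brightest groups the members' medians were 0.11 (19 genes) and 0.18 (26 genes), beside 0.08 and 0.13 for all probes. From group 7 to group 10 the medians of all probes thus rose with the signal too. They were 0.24, 0.23 and 0.16 in groups 1, 2 and 3, which held 0, 1 and 0 members. Of the 23 members in groups 6 to 8, 17 lay below the median of all probes of their group and 6 above it. Of the 45 in the 2 brightest groups, 17 lay below and 28 above.

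**Figure D5:**
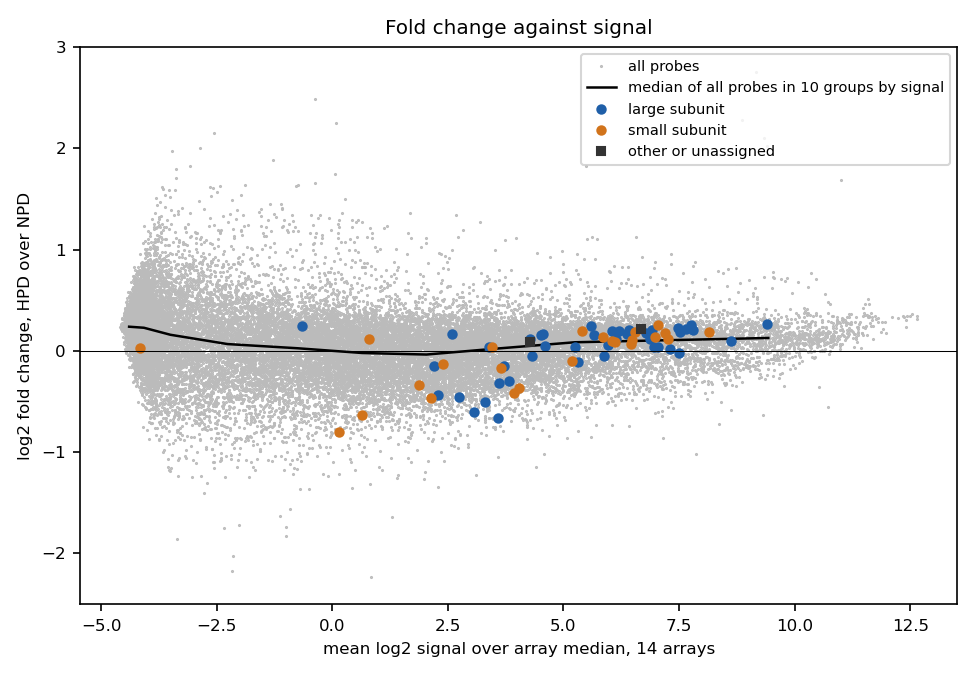
Log2 fold change of HPD over NPD against the mean log2 signal over 14 arrays, for all probes (grey) and for the 70 genes by subunit (colours); the line joins the medians of all probes in 10 groups of equal size by signal. The genes below -0.29 lie between signals of 0.14 and 4.03, and the brighter genes lie on both sides of the line.

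Mrpl35 showed how far a difference can rest on the probe. Its brighter probe crossed an intron, at chr4:105106986-105111007 of rn4, and the other lay at chr4:105103419-105103478. The first 30 bases of each, from the 5′ end, are given to tell them apart.
Mrpl35 brighter probe: ggaatattacgtcccctcaatgtctcggtt
Mrpl35 other probe: gttcatgacagtcatcactagtgcctgggt
The brighter probe differed by -0.66 ± 0.24 and the other by 0.05 ± 0.16 (SE), with unadjusted limma p of 0.013 and 0.76. Both were above background on all 14 arrays. Of the 11 genes with 2 probes, 9 had both above background on all arrays, and 5 of these had probes that differed in sign. Apart from Mrpl35 these differences were small. For Mrpl10 they were 0.26 and -0.06, for Mrpl2 0.21 and -0.0036, for Mrps21 0.18 and -0.12, and for Mrpl17 0.02 and -0.08. The second probe of Mrpl50 was well above background on 1 array of each diet, so its sign is not read.

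The upper end of the family was flat. Mrpl10 anchors the stalk of the large subunit, where translation factors dock, and had both the brightest probe and the highest difference. Its level ran from 8.98 to 9.74 in NPD (median 9.24) and from 9.13 to 9.87 in HPD (median 9.50), a difference of 0.26 ± 0.14 (SE) with a limma p of 0.074. The exact permutation p was 0.059. Only 1 of the 7 HPD values lay below the NPD mean, yet the groups overlapped over most of their range, and in the authors' table with the slide as a block the difference was -0.03. Mrpl12, the protein of the stalk itself, had the second brightest probe and differed by 0.10 ± 0.13 (SE). Mrps16, with the third brightest, differed by 0.19 ± 0.18 (SE).

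Of the next highest, Mrps12 is the counterpart of the bacterial protein that guards the accuracy of decoding. It ranged from 6.51 to 7.28 in NPD (median 6.94) and from 6.54 to 7.67 in HPD (median 7.08), a difference of 0.26. Mrpl14 differed by 0.25, Mrpl44, a large subunit protein with the fold of an RNase, by 0.24, Mrpl47 by 0.24 and Mrpl37 by 0.23. The q of these 5 genes lay between 0.515 and 0.621. None passed the test. At the dim end, Mrps28 was well above background on 1 of 7 NPD and 0 of 7 HPD arrays, so no fold change is given for it. The other 69 genes were above background on all 14 arrays.

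The other genes of mitochondrial translation were described by lists. None of their genes passed q under 0.1. Beside them, 35.8% of all probes and 42.1% of those above background on all arrays lay below 0. The 52 genes of mitochondrial translation, transcription and biogenesis had 14 below 0 as reported. That number was 30 with another background correction and 37 in the authors' normalized table with the slide as a block. No direction is therefore given for these lists. Of 7 mitoribosomal proteins with other names, all 7 lay above 0, with a median of 0.20. The smallest p among them were those of Ict1, a peptidyl-tRNA hydrolase built into the large subunit (0.26), and Aurkaip1 (0.28). Of 11 translation factors 9 lay above 0, with a median of 0.14. Tsfm, which recharges the elongation factor Tufm, differed by 0.35 ± 0.19 (SE) and Gfm2, which takes part in recycling the ribosome, by -0.33 ± 0.20 (SE). Neither p was under 0.05.

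Factors that assemble the mitochondrial ribosome and modify its RNA had some low values. Of 17 genes measured, 4 (23.5%) were lower at an unadjusted p under 0.05, beside 5.55% of all probes and 8.13% of those above background on all arrays. None was higher, and the median of the list was 0.09. Mterfd2, now Mterf4, which guides the rRNA methyltransferase Nsun4, had a mean of 1.33 in NPD and 0.71 in HPD, a difference of -0.62 ± 0.21 (SE) with a limma q of 0.417. Ddx28, an RNA helicase of large subunit assembly, differed by -0.46 ± 0.16 (SE). The other 2 were Rpusd4, a pseudouridine synthase, at -0.37, and Ngrn at -0.29, both named after their values were seen to complete that count. The group means of the 4 genes, from -0.04 to 3.55, were also in the middle range of the array.

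Genes of mitochondrial transcription, biogenesis and mass were measured as well. Of 9 genes of mitochondrial transcription and RNA handling, 6 lay above 0. Supv3l1, a helicase of mitochondrial RNA decay, differed by -0.34 ± 0.17 (SE) and the transcription factor Tfb2m by 0.19 ± 0.13 (SE). Of 8 regulators of mitochondrial biogenesis none had a p under 0.05. Ppargc1a, the coactivator that drives it, differed by -0.40 ± 0.25 (SE), and Pprc1 by 0.17 ± 0.20 (SE). Among 9 markers of mitochondrial mass 5 lay above 0. At p under 0.05, beside 5.55% of all probes and 8.13% of those above background on all arrays, 2 were lower. These were Phb2, a prohibitin of the inner membrane, at -0.41 ± 0.14 (SE), and the protease Lonp1, at -0.35 ± 0.15 (SE), sizes within the range of the 11 lower ribosomal genes. Their limma q was 0.417 and 0.422 as reported. Both passed q under 0.1 with normexp (0.0893 and 0.0897), in the authors' table with the slide as a block (0.0382 and 0.0463) and with normexp and the slide as a block (0.0214 and 0.0249). The 92 cytosolic ribosomal protein genes had a median difference of 0.11, with 2 lower and 2 higher at p under 0.05. Among all probes 5.55% were lower and 5.86% higher at that p.

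The promoters of the family carry motifs that are known from nuclear genes for mitochondrial proteins. RefSeq promoter windows on GRCr8, from 250 bases before to 50 bases after the transcription start, were matched for 56 of the 70 genes. The core of the NRF-1 site, GCATGCGC on either strand, was in 5 of these 56 windows (8.93%) and in 2.66% of 27457 windows of all genes. The ETS core CCGGAAG, read by GABP among others, was in 18 windows (32.1%), beside 9.22% of all. By comparison, the TATA box TATAAA was in 12.5% and 14.3%, and CCAAT in 44.6% and 37.7%. The E-box CACGTG was in 6 of the 56 windows and in 6.65% of all. Of the 11 lower genes 8 had a window, of which 0 held the NRF-1 core and 1 the ETS core, against 5 and 17 of the other 48. These are matches of letters, not binding. The parts upstream of the start that hold the NRF-1 core are shown with the matches in capitals, written 5′ to 3′ on the strand of the gene. A run of GCGCATGCGC counts as 2 overlapping matches, 1 on each strand.
Mrpl17 (chr1:169575700-169575769, minus strand): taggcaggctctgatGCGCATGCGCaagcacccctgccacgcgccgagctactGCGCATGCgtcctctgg
Mrpl22 (chr10:42845866-42845903, plus strand): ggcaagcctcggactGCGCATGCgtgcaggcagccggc
Mrpl32 (chr17:55260574-55260630, plus strand): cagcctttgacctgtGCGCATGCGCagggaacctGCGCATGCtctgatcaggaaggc
Mrpl44 (chr9:88554903-88554942, plus strand): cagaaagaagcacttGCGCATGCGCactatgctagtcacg
Mrps18b (chr20:2842971-2843005, plus strand): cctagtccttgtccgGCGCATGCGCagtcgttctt
Mrpl17, Mrpl22, Mrpl32 and Mrpl44 differed by 0.02, 0.16, 0.15 and 0.24 between the diets and Mrps18b by -0.47, so genes that share this core lay at both ends of the family. Mrpl22 and Mrpl32 were named for the motif.

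The calls depended on the background correction and on the slide. The normexp correction subtracts the measured background, models the background that remains and adds an offset of 50 to the signal. The median processed signal of an array was 53.5 to 100.3. With normexp, 14 members passed q under 0.1 as lower (6.15% of all probes) and 1 as higher (10.8%). The 14 held all 11 genes above with Mrps11, Mrps14 and Mrps18a, and the 1 was Mrps28, which was not well above background. With normexp and the slide as a block, 16 members were called lower (10.6% of all probes). In the authors' normalized table, 0 members passed without the block, at a lowest q of 0.159, and 15 were lower with it (6.50% of its rows). That group held the 11 genes with Mrps11, Mrps18a, Mrps18b and Mrps35. Mrps11, Mrps14 and Mrps35 were named after these calls were seen.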

How the data were processed

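RNA from colonocytes of 14 rats was hybridised to Agilent single-colour rat arrays, 1 per rat. Per the file headers, Feature Extraction 10.7.3.1 made the intensity values, subtracting background and fitting surrogates to dim spots. The deposited normalized table holds log2 values that the authors centred by array and averaged over spots, 1 row per gene name; it served as an alternative. Here, log2 processed signals of the 58717 non-control spots were averaged per probe, without outlier spots, and centred on the median probe of each array. Diet was tested with limma 3.58.1 (R 4.3.3; lmFit, eBayes), with Benjamini-Hochberg adjustment over 30367 probes and q under 0.1. Single genes were also tested by exact two-sided permutation over all 1716 splits and over 1225 regroupings within slides; the smallest p over all splits is 0.00058. A probe counted as well above background on an array where at least as many of its spots were marked so as not. No member probe was saturated or had a missing value. Labels do not say whether rats shared cages, so p-values measure the spread between these rats, whose number limits precision.

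Members were taken by the name rule. Named genes were the 12 lowest and 6 highest differences above background, the 3 brightest and 3 dimmest, genes whose probes differ in sign, Mrps18a and Mrps30, members not above background everywhere, and per list the called genes or else the 2 with the smallest p. The members and lists were chosen with earlier results of these data known. Names follow the array's own annotation. Of the lists, 11 of 14 translation factors, 17 of 21 assembly factors and 9 of 10 transcription factors had a probe by name, and the messenger RNAs of mitochondrial DNA were matched by none of their names and not analysed here. Alternatives were other signals, centrings, normalizations and filters, slide or replicate number as a block, each slide alone, each array left out, the mean of all probes and the authors' table. The fit was tested on simulated data.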

Additional observations from a re-analysis of the deposited data

Results flagged for a closer look

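Of 78 groups of 7 rats for the named genes, 4 had a rat far from the others of its diet by Dixon's test at its 95% value, about the 1 in 20 that chance gives. HPD 1 was highest for Mrpl42, at 3.83 with the next HPD rat at 2.92, and without it the difference went from -0.61 to -0.78. HPD 1 was also highest for Ddx28, at 0.57 with the next at -0.01, and the difference then went from -0.46 to -0.57. HPD 2 stood out for Mrps10, at 1.38 with the next at -0.38. NPD 7 stood out for Mrps28, at -2.77 with the next at -4.09, and was the only array on which any of that probe's spots was well above background.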

How the results depend on the processing

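In every alternative the 11 genes lower at p under 0.05 stayed below 0 (48 fits of the same arrays or part of them, the reported one included). The number of members called was 0 as reported and in all alternatives but these. It was 15 with normexp, 15 in the authors' table with the slide as a block, 17 with normexp and the slide as a block, and 0 to 2 over the fits that left out 1 array, the 2 without HPD 1. With the slide as a block and 1 array left out it was 0 to 11, the 11 again without HPD 1. Over all features, calls in either direction were 5142 of 30367 with normexp and 8479 of 30367 with normexp and the block. They were 2767 of 26414 in the authors' table with the block. Without HPD 1 they were 151 of 30367, and 1640 of 30367 with the block. Members below 0 numbered 22 as reported, 35 with the median pixel signal, 43 with normexp, 45 in the authors' table, 54 in that table with the slide as a block and 59 with normexp and the slide as a block. Leaving out 1 array gave 21 to 33, and 21 to 37 with the slide as a block, the values past 33 being 34 without HPD 2 and 37 without HPD 7. The median over the family was 0.02 to 0.14 with 1 array left out, -0.01 to 0.09 with the slide as a block as well, and -0.08 to 0.16 over all alternatives. Of the 52 other genes of mitochondrial translation, transcription and biogenesis, 0 were called as reported. All calls in the alternatives were lower in HPD: 4 (7.69%) with normexp, 5 (9.62%) in the authors' table with the slide as a block, 7 (13.5%) with normexp and the slide as a block and 2 (3.85%) with the slide as a block without HPD 1, beside 6.15%, 6.50%, 10.6% and 3.46% of all probes called lower. The cause of these shifts was not tested. The replicate block, which pairs rats of the same number, called 0 members with a lowest q of 0.178 and left the median at 0.10. The numbers are no known pairing: the correlations of same-numbered rats ran from -0.09 to 0.39, and 1 of 7 NPD rats was closest to its own number.

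Some alternatives were added after the data were seen. Centring on the median over spots, in which a probe with many spots counts once for each, was run first and was replaced by centring over probes after its values were seen. It moved the median of all probes from 0.11 to 0.17 and that of the family from 0.10 to 0.16, with 0 members called. The array names mrpl9, mrpl11 and mrpl24 are spelled with a small first letter and fall outside the name rule. With these 3 genes, whose differences were 0.09, 0.20 and 0.03, or without Mrps21l and Mrps36, 0 members were called. Only Mrps28 was below background on some arrays, so signal over background limits no other member.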
